A study of Mus musculus with 4 samples.

Results

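The numbered Zfp genes are mouse genes whose symbol is Zfp, for zinc finger protein, followed by 3 digits. They were studied in E14 cells, a mouse embryonic stem cell line, without further treatment (2 arrays) or after 4 h in 0.5 mM valproic acid (VPA, 2 arrays). VPA is a branched fatty acid that inhibits histone deacetylases. All cells shared the same culture on primary embryonic fibroblasts stopped with mitomycin C, with serum and leukemia inhibitory factor, and the labels name no genetic change. Members were the genes with a probe set carrying exactly 1 symbol of this form, leaving out Zfp296, Zfp352 and Zfp809, represented by the probe set of highest mean over the 4 arrays and kept if the mean log2 signal of the untreated arrays was 5 or more. This left 123 genes of 273 such genes at any level, out of 19938 represented genes, of which 8190 passed the same threshold.

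Most of these genes encode proteins built from C2H2 zinc fingers, short loops held by a zinc ion that read a few DNA bases each. Many carry a KRAB domain, which recruits the corepressor Trim28 (also called KAP1) and, through it, the histone methyltransferase Setdb1 and heterochromatin proteins. In embryonic stem cells this machinery keeps endogenous retroviruses silent and protects DNA methylation at imprinted genes. Other members have no KRAB domain and act as ordinary transcription factors, as parts of chromatin complexes, or on RNA and ribosomes. KRAB zinc finger genes have multiplied in rodents and lie in runs of related neighbours, so that probes can be shared between relatives.

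The cells carried the markers of their label. All 10 embryonic stem cell markers (among them Pou5f1, Nanog and Sox2) had untreated means between 8.62 and 12.52 on the log2 scale. Their median was 10.50 and 10.31 in the untreated arrays and 10.12 and 10.17 in the VPA arrays, with 3 markers of higher and 7 of lower mean with VPA. Of the lower ones Nanog (−0.48 ± 0.14, SE), Sall4 (−0.43 ± 0.11) and Utf1 (−0.33 ± 0.12) had an unadjusted limma p under 0.05, and their part in the results was not tested. Of 12 fibroblast feeder markers, 5 lay below 5 in untreated cells, and the list ran from 2.18 for Lum to 10.24 for Vim. The feeder medians were 5.38 and 5.36 in untreated and 5.47 and 5.44 in VPA arrays, with 3 markers of higher and 9 of lower mean. Thy1 alone had an unadjusted p under 0.05, at a difference of 0.31 ± 0.12, and the part of feeder RNA in the results was not tested. The 4 endoderm markers and 3 of the 4 trophoblast markers lay below 5. In such bulk samples fewer cells of a type and less RNA per cell cannot be told apart. Nothing in the labels says that the arrays came from separate cultures, so the p-values rest on a spread between arrays that may be purely technical.

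No numbered Zfp gene passed the test for a difference between VPA and untreated cells. A few stood out in size: Zfp667 and Zfp941 were 1.89-fold and 1.62-fold higher, and Zfp428, Zfp710 and Zfp423 were 1.65-fold, 1.65-fold and 1.54-fold lower. The remaining 118 had group means less than 1.5-fold apart or overlapping arrays, and 98 of the 123 differed by under 0.30 on the log2 scale. With limma's moderated test over all 35556 probe sets and Benjamini-Hochberg adjustment, 0 members were called at an adjusted p of 0.05, as were 0 of all probe sets (0%), and among members the smallest value was 0.462. The unadjusted p was under 0.05 in 13 members of higher signal (10.6%) and 8 of lower signal (6.50%). Among the 8190 genes that passed the same threshold these shares were 10% and 3.47%, so the count of higher members lay near the background, and over all represented genes they were 5.90% and 2.71%. For the alternatives that follow the shares over all genes are not given, so changes in the members cannot be told from changes in all genes. After a second quantile normalization of the arrays the counts were 8 higher and 10 lower. They were 8 and 4 without untreated replicate 2, 5 and 5 without VPA replicate 1, and 8 and 4 without VPA replicate 2. Because the threshold used the untreated arrays, which are also one side of the comparison, all counts over the members are descriptions.

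**Figure D1:**
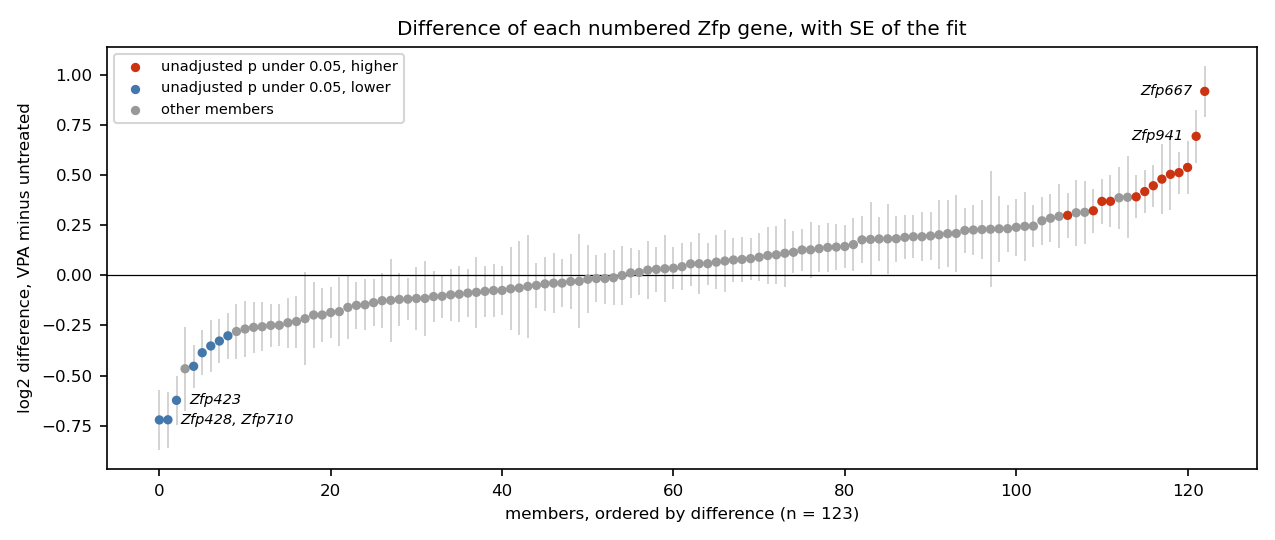
Log2 difference between VPA and untreated cells (vertical axis) for each of the 123 members, ordered by size (horizontal axis). Points are differences of group means of 2 arrays each and bars are the SE of the limma fit. The 13 red and 8 blue points have an unadjusted p under 0.05, and none passed after adjustment over all probe sets.

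The median difference of the members lay close to that of all genes above the threshold. It was 0.043 on the log2 scale, with quartiles of −0.12 and 0.20. Of the members 68 had a higher (55.3%) and 55 a lower mean with VPA. The 8190 genes above the same threshold had a median of 0.070, with quartiles of −0.068 and 0.21. Of these 5195 had a higher mean (63.4%), and whether the shares differ was not tested. Over all represented genes the median was 0.015. The median of the members was −0.018 after a second quantile normalization. It moved to 0.088 when untreated replicate 1 was left out and to 0.012 when untreated replicate 2 was. Arrays of the 2 groups did not overlap for 45 members of higher and 23 of lower signal, 36.6% and 18.7%, against 34.7% and 15.8% of the genes above the threshold. The members of higher signal that were also at least 1.5-fold apart made up 1.63% (background 1.56%) and those of lower signal 2.44% (background 0.488%), which is 2 and 3 genes. With an array left out 1 group holds 1 array, so that lack of overlap is an easier rule in the counts that follow. Leaving out untreated replicate 1 gave 5 higher, and leaving out untreated replicate 2 gave 4. Leaving out VPA replicate 2 gave 3 higher and 2 lower, and leaving out untreated replicate 2 also gave 2 lower.

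Zfp667 showed the largest difference of all members. It encodes a KRAB zinc finger repressor also known as Mipu1. Its signal was 5.49 and 5.43 in the untreated arrays and 6.49 and 6.27 in the VPA arrays, so that the groups lay far apart compared with the gap within either. The difference was 0.92 ± 0.13 (SE, n = 2 arrays a group) on the log2 scale, with an unadjusted p of 0.000801 and an adjusted p of 0.462 in limma. Zfp941 went from 6.89 and 6.93 to 7.48 and 7.73, a difference of 0.69 ± 0.13. Zfp142 went from 6.31 and 6.37 to 6.84 and 6.86, with the closest pair of VPA arrays among these 3 genes and a difference of 0.51 ± 0.11.

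The promoters of these 3 genes are shown because they have the smallest p among the members of higher signal with VPA. They differ in their content of CpG, the dinucleotide at which mammalian DNA is methylated. The sequences are RefSeq's for GRCm38.p6 and run 5′ to 3′ on the gene's strand, from 250 bases before the listed start to 50 after it, with each CpG in capitals. Zfp667 (chr7:6286330-6286629, plus strand) held 25 CpG in 300 bases, Zfp941 (chr7:140822129-140822428, minus strand) held 5 and Zfp142 (chr1:74587979-74588278, minus strand) held 16.
Zfp667: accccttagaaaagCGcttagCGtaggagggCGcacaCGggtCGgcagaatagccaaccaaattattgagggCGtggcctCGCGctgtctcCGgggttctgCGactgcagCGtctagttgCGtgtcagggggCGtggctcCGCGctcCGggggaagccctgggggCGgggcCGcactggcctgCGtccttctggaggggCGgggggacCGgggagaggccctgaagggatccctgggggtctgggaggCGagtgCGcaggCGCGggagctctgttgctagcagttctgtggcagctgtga
Zfp941: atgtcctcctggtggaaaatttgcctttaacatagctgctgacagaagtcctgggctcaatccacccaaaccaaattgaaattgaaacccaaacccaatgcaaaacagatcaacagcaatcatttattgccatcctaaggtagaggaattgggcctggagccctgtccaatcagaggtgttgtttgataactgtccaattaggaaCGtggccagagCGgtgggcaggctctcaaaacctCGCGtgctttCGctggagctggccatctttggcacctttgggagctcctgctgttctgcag
Zfp142: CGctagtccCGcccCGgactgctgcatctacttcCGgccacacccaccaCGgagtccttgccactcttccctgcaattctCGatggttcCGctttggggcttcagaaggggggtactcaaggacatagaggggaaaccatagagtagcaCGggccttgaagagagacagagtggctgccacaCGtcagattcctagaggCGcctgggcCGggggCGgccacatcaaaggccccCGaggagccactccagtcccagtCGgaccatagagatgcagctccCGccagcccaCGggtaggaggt

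The next genes by p differed by 0.32 to 0.54 on the log2 scale. Zfp945 lay at 5.76 and 5.70 in untreated and at 6.17 and 6.19 in VPA cells, a difference of 0.45 ± 0.11 (SE). Zfp101 lay at 5.03 and 5.20 against 5.75 and 5.55, a difference of 0.54 ± 0.13. In both genes the VPA arrays stood above the untreated ones by more than the gap within a group. Zfp707 lay at 5.33 and 5.30 against 5.78 and 5.69 (difference 0.42 ± 0.11), and Zfp948 at 5.27 and 5.21 against 5.67 and 5.60 (0.39 ± 0.11). Zfp940, which entered the set just above the threshold, lay at 5.03 and 5.01 against 5.32 and 5.45, a difference of 0.37 ± 0.11. The last 4 of the 12 genes of smallest p in this direction had wider untreated pairs or smaller differences. Zfp111 differed by 0.32 ± 0.11, Zfp870 by 0.37 ± 0.13, Zfp626 by 0.50 ± 0.18 and Zfp189 by 0.48 ± 0.18. Zfp189 lay at 5.18 and 4.86 in untreated and at 5.66 and 5.34 in VPA cells, so that its groups were separated by less than the gap within either. Zfp958, the last gene with higher signal and an unadjusted p under 0.05, differed by 0.30 ± 0.11. Over the first 12 genes the adjusted p ran from 0.462 to 0.530.

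Zfp710, Zfp428 and Zfp423 had the largest differences in the other direction. Zfp710 went from 7.03 and 7.24 to 6.31 and 6.52, a difference of −0.72 ± 0.14 (SE, n = 2 arrays a group). Zfp428 went from 5.92 and 6.23 to 5.28 and 5.42, a difference of −0.72 ± 0.15. Zfp423 encodes a multi-finger partner of Ebf and Smad proteins known for its part in fat cell and cerebellar development. Its untreated arrays were close together at 7.40 and 7.41 and its VPA arrays lay at 6.88 and 6.68, a difference of −0.62 ± 0.12. In all 3 genes every VPA array was below every untreated array, which picking them by size and p favours. The adjusted p was 0.462 for Zfp710 and Zfp423 and 0.472 for Zfp428.

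The promoters of these 3 genes, which have the smallest p among the members of lower signal with VPA, are given for comparison, with each CpG in capitals. Zfp710 (chr7:80024564-80024863, plus strand) held 4 CpG in 300 bases at a G+C content of 62.7%, Zfp423 (chr8:87959546-87959845, minus strand) held 21 and Zfp428 (chr7:24506837-24507136, plus strand) held 19. For Zfp710 the start is the first that the table lists, and transcripts from other starts were not analysed here.
Zfp710: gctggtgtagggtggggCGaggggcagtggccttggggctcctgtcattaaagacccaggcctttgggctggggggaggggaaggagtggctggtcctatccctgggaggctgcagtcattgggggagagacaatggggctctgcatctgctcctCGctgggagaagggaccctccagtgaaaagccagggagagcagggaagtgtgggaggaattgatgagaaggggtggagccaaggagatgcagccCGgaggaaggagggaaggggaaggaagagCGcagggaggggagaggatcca
Zfp423: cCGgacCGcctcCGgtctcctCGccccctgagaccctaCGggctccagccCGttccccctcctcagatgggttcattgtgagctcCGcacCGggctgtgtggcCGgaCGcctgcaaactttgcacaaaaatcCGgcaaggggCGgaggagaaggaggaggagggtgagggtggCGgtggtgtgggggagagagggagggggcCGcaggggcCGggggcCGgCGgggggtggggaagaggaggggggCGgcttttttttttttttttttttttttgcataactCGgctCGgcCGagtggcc
Zfp428: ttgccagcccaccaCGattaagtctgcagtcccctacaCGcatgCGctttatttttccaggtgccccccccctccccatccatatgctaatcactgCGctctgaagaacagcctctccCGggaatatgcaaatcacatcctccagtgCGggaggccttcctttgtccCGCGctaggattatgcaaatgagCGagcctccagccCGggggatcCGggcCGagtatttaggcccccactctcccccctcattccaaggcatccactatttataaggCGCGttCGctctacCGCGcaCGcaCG

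The other genes of lower signal mostly had tight untreated pairs. Zfp553 lay at 7.69 and 7.79 in untreated and 7.27 and 7.31 in VPA cells, a difference of −0.45 ± 0.11 (SE). Zfp740, which binds C-rich DNA, lay at 7.03 and 7.02 against 6.71 and 6.56 (−0.39 ± 0.11). Zfp507 lay at 6.998 and 7.01 against 6.63 and 6.73 (−0.33 ± 0.11). In these 3 genes the untreated pair was tight and the VPA pair lay wholly below it. Zfp384, a nuclear matrix protein that binds A-rich DNA, differed by −0.35 ± 0.13, and Zfp961, a KRAB zinc finger gene, by −0.30 ± 0.12. Zfp532 differed by −0.25 ± 0.11, Zfp219 by −0.25 ± 0.11 and Zfp511 by −0.26 ± 0.12. Zfp414 differed by −0.47 ± 0.21, but its untreated arrays lay at 5.97 and 6.54, further apart than untreated replicate 1 was from either VPA array (5.77 and 5.81). The untreated means of the 12 genes of lower signal had a median of 7.08, and those of the 12 genes of higher signal a median of 5.60. Levels of different probe sets reflect their probes as well as the transcript, so this is no ranking of transcript amounts.

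**Figure D2:**
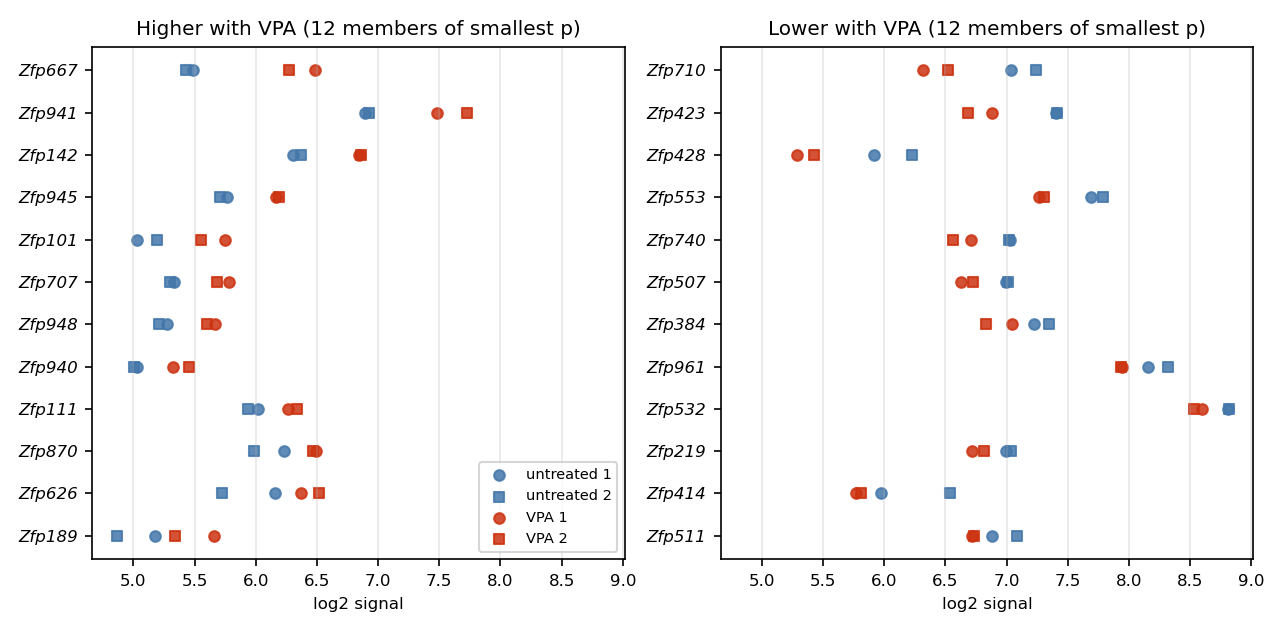
Log2 signal (horizontal axis) in each of the 4 arrays for the 12 members of smallest p in each direction. Blue symbols are untreated and red symbols VPA arrays, and circles and squares are replicates 1 and 2. In all 24 genes the 2 groups do not overlap, which the choice by p favours. Of genes above the threshold 34.7% were higher and 15.8% lower without overlap. The genes of lower signal sit at 6.07 or more in untreated cells.

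The members with lower signal at that p lay further up the signal scale than those with higher signal. Among 47 members with an untreated mean of 5 to 6, 10 were higher and 0 lower at an unadjusted p under 0.05, and among 34 members from 6 to 7 there were 3 and 1. Among 25 members from 7 to 8 there were 0 and 6, and among 17 members of 8 or more 0 and 1. All represented genes also had fewer higher calls further up the scale. These were 294 higher and 71 lower of 2103 genes from 5 to 6, 306 and 80 of 2111 from 6 to 7, 158 and 58 of 1779 from 7 to 8, and 64 and 75 of 2197 at 8 or more. In the bin of 7 to 8 the median of the members was −0.039, with 16 of lower mean. Of the 1779 represented genes in that bin 1142 had a higher mean, and the median was 0.079. From 5 to 6 the medians were 0.079 for members and 0.071 for all represented genes, and at 8 or more they were 0.043 and 0.041. Whether the bins, or members and other genes within a bin, differ was not tested. With a threshold of 6 in place of 5, 76 members remained, with 3 higher and 8 lower.

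**Figure D3:**
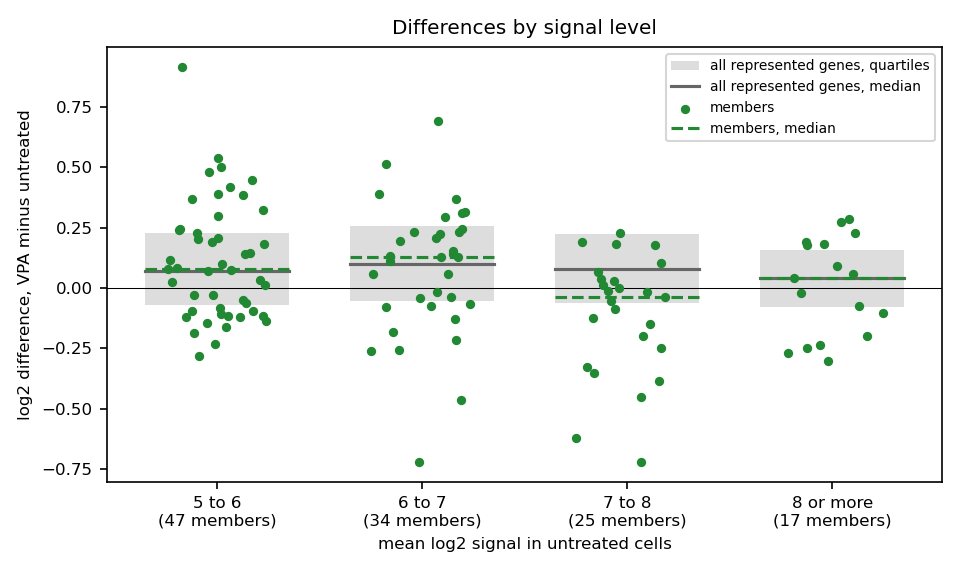
Log2 difference between VPA and untreated cells (vertical axis) in 4 bins of the mean log2 signal in untreated cells (horizontal axis). Green points are members and dashed green lines their medians, and grey boxes and lines are the quartiles and medians of all represented genes in the bin. The median of the members lies below 0 only in the bin from 7 to 8, at −0.039.

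The members with a known part in stem cells or at promoters were mostly of lower mean with VPA, without passing the test. Of 12 listed genes 11 were members, 8 of lower and 3 of higher mean, with a median of −0.12. Zfp740 and Zfp384 alone had an unadjusted p under 0.05. Zfp462, of lower mean, and Zfp217, of higher mean, are also on the list of chromatin complex members below, so these lists are not separate observations. Of the 8190 genes above the threshold 63.4% had a higher mean, and 3.47% were lower at that p. The role lists were drawn up with earlier results of these data known, and whether a list differs from other genes was not tested. Zfp281, a GC-box binding protein that restrains Nanog, lay at 8.48 and 8.42 in untreated and 8.37 and 8.32 in VPA cells, a difference of −0.10 ± 0.11 (SE). Zfp706 differed by −0.24 ± 0.13 on its brighter probe set and by 0.21 ± 0.25 on its other one. Zfp219, a GC-rich binding repressor, is among those described above. In the other direction, Zfp217, a partner of the Lsd1 and CoREST demethylase complex, differed by 0.19 ± 0.11. Zfp410, which activates the remodeller gene Chd4, lay at 6.75 and 6.69 against 6.88 and 7.03, a difference of 0.23 ± 0.12. Zfp148, a relative of Zfp281, differed by 0.10 ± 0.14, Zfp263 by −0.039 ± 0.12 and Zfp746 by −0.12 ± 0.19.

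Members tied to chromatin complexes showed small differences in both directions, more of them lower. Of 16 listed genes 12 were members, 9 of lower and 3 of higher mean, with a median of −0.091, and 0 had an unadjusted p under 0.05. Of genes above the threshold 63.4% had a higher mean, and whether the list differs from them was not tested. Zfp462, which works with the histone methyltransferases G9a and GLP, lay at 8.49 and 8.70 in untreated and 8.43 and 8.21 in VPA cells, a difference of −0.27 ± 0.14 (SE). Zfp644, another G9a partner, differed by −0.15 ± 0.12, and Zfp335, part of H3K4 methyltransferase complexes, by −0.28 ± 0.14. Zfp592 and Zfp687 encode related proteins of 1 complex in human cells. Their values were −0.22 ± 0.23 and 0.23 ± 0.17, with overlapping arrays in both. Zfp609, a partner of the cohesin loader Nipbl, differed by −0.067 ± 0.21 and Zfp451, a SUMO ligase, by 0.014 ± 0.11. The values of Zfp653 (−0.19 ± 0.13), Zfp131 (−0.12 ± 0.16), Zfp512 (−0.030 ± 0.23) and Zfp516 (−0.016 ± 0.13) complete this list with Zfp217. Of the 4 listed genes that were not members, Zfp711, Zfp608 and Zfp541 lay at 3.40, 3.56 and 3.18 in untreated cells and Zfp827 at 4.73.

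Members that silence retroelements or guard imprints differed little. Of 10 listed genes 7 were represented and 6 were members, 4 of lower and 2 of higher mean, with a median of −0.016. Of genes above the threshold 63.4% had a higher mean, and 3.47% were lower at an unadjusted p under 0.05. Zfp568, the KRAB repressor of a placental Igf2 promoter, lay at 9.15 and 8.90 in untreated and 8.91 and 8.98 in VPA cells, a difference of −0.076 ± 0.13 (SE) whose sign turned without untreated replicate 1. Zfp445, which maintains imprints together with Zfp57, lay at 8.51 and 8.06 against 8.55 and 8.38. Its difference of 0.18 ± 0.18 turned to −0.046 without untreated replicate 2. Zfp819, a KRAB gene of pluripotent cells, differed by −0.031 ± 0.14, Zfp459 by −0.00073 ± 0.15 and Zfp600 by 0.15 ± 0.13. Zfp961 was the 1 member of this list with an unadjusted p under 0.05, and Zfp708, which silences a retroelement family in mouse germ cells, lay at 3.07 in untreated cells and was no member.

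Most of the listed cofactors of KRAB proteins also differed little, in a list that holds the KRAB gene Zfp57 as well. Of 19 listed names, in which Tasor appears under 2, 17 genes were represented. Their median difference was −0.016, with 6 of higher and 11 of lower mean. An unadjusted p under 0.05 was reached by 2 of the lower ones and 0 of the higher ones. Of the 8190 genes above the threshold 63.4% had a higher mean, and 10% were higher and 3.47% lower at that p. Whether the list differs from them was not tested. Trim28 lay at 11.71 and 11.68 in untreated and at 11.62 and 11.59 in VPA cells, a difference of −0.090 ± 0.10 (SE). Setdb1 differed by −0.039 ± 0.13 and the heterochromatin protein genes Cbx1, Cbx3 and Cbx5 by −0.13 ± 0.11, 0.058 ± 0.16 and −0.0011 ± 0.12. The 2 genes at that p were Zfp57, the 2-digit KRAB gene that protects imprints, and Atf7ip, the partner that stabilises Setdb1. Zfp57 lay at 10.90 and 10.88 in untreated and at 10.53 and 10.41 in VPA cells, a difference of −0.42 ± 0.11. Atf7ip lay at 8.83 and 8.77 against 8.57 and 8.39, a difference of −0.32 ± 0.12.

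Members that act on RNA, ribosomes or the spindle showed small differences. Of 10 listed genes 9 were members, 6 of higher and 3 of lower mean, and 0 had an unadjusted p under 0.05. Their median was 0.090, near the 0.070 of genes above the threshold, of which 63.4% had a higher mean. Zfp330, a nucleolar protein, lay at 9.45 and 9.42 in untreated and 9.59 and 9.66 in VPA cells, a difference of 0.19 ± 0.11 (SE). Zfp106, an RNA-binding protein of motor neurons, differed by 0.090 ± 0.12 and Zfp622, a maturation factor of the large ribosomal subunit, by 0.058 ± 0.10. Zfp593, also a ribosome assembly factor, differed by 0.20 ± 0.12, Zfp346, which binds double-stranded RNA, by 0.23 ± 0.15 and Zfp830, needed for early embryo survival, by 0.31 ± 0.16. Zfp207, a spindle and kinetochore protein, lay at 9.23 and 8.83 against 8.94 and 9.08, so its untreated arrays enclosed its VPA arrays, and its difference was −0.020 ± 0.17. Zfp598, the ubiquitin ligase of collided ribosomes, differed by −0.18 ± 0.17 and Zfp638 by −0.088 ± 0.12. Zfp326, part in human cells of a complex that links transcription to splicing, missed the threshold at 4.96 and lay at 5.16 and 5.68 with VPA.

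Of 11 listed neural and developmental regulators only 3 were members. Zfp423 is described above, Zfp365 differed by 0.13 ± 0.12 (SE) and Zfp704 by −0.075 ± 0.12. The others lay between 2.60 (Zfp536) and 4.79 (Zfp750) in untreated cells, below the threshold.

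**Figure D4:**
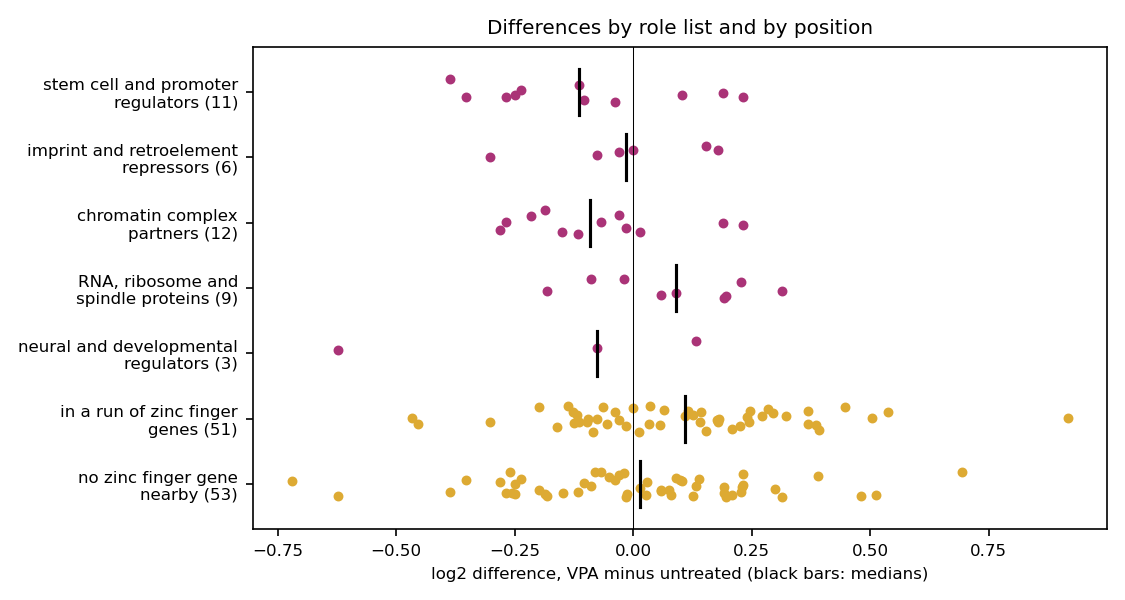
Log2 difference between VPA and untreated cells (horizontal axis) of the members of each role list (purple) and of members grouped by their neighbours on the chromosome (yellow), with the number of members in brackets. Black bars are medians, which run from −0.12 for the stem cell and promoter regulators to 0.11 for members in a run of zinc finger genes.

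Members that lie among other zinc finger genes had a median of 0.11, and those with no such neighbour one of 0.014, on either side of the 0.070 of all genes above the threshold. Neighbours were taken from the gene order of RefSeq's GRCm38.p6 table as the 5 coding genes on either side, a rule set after the differences were seen. Of 122 members with a position, 51 had 2 or more zinc finger genes among these 10 neighbours, and 31 of them (60.8%) had a higher and 20 a lower mean, near the 63.4% of genes above the threshold. Of 53 members with none, 27 were higher and 26 lower, and of 18 members with 1 there were 9 and 9. At an unadjusted p under 0.05, 8 of the 51 were higher (15.7%) and 2 lower (3.92%), and 4 of the 53 were higher and 4 lower (7.55% each), against 10% and 3.47% of genes above the threshold. Among the 12 genes of smallest p in each direction, 8 of the higher and 3 of the lower ones lay in such runs. Whether these groups differ was not tested. The 11 members numbered from 900, a group also picked after its values were seen, had 8 of higher and 3 of lower mean and a median of 0.30.

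Most runs of neighbouring members held means of both directions. There were 17 runs, holding 37 members, in which each member lay within 5 coding genes of the next. In 4 runs all means were higher with VPA, in 1 all were lower and in 12 they were mixed. Of all members 68 had a higher and 55 a lower mean, so mixed runs also arise where direction is unrelated to position. Whether neighbours share a direction was not tested. Some signs rest on differences far below the SE, such as Zfp516 (−0.016 ± 0.13) and Zfp819 (−0.031 ± 0.14), each in a mixed run. Zfp667 lay beside Zfp444, whose signal was 4.99 and 5.03 in untreated and 4.89 and 4.89 in VPA cells, a difference of −0.12 ± 0.10 (SE). Zfp101 and Zfp414 differed by 0.54 and −0.47, and Zfp553 and Zfp771 by −0.45 and 0.11. Zfp870 and Zfp871, a run of 2 members, differed by 0.37 and 0.28. In the longest run, Zfp940 and Zfp566 differed by 0.37 and 0.29, and Zfp568 and Zfp146 by −0.076 and 0.066.

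Of the short motifs sought in promoters, an ETS core had the widest gap in share between members of higher and lower mean. A promoter was found in RefSeq's table for 99 members, taking the first listed start of each gene. The letters CCGGAA, the core bound by ETS transcription factors, were sought on both strands. They occurred in 24 of 55 promoters of members with a higher mean (43.6%) and in 7 of 44 of those with a lower mean (15.9%). Of all 27025 promoters 15.2% held them, as did 34.7% of promoters of genes above the threshold with a higher mean and 29.3% of those with a lower mean. The GC box GGGCGG occurred in 54.5% and 56.8% of promoters of members with higher and lower means, above the 35.9% of all promoters but below the 69.4% of genes above the threshold. CCAAT occurred in 52.7% and 43.2%, against 37.9% of all and 39.6% of genes above the threshold. TATAAA occurred in 3.64% and 13.6%, against 14.2% and 6.34%, and the YY1 site AAGATGGCG in 3.64% and 4.55%, against 1.49% and 4.12%. Among the few members with an unadjusted p under 0.05 the order of the motifs was another. There the ETS core occurred in 4 of 11 promoters of higher and 2 of 8 of lower members, the GC box in 3 and 5, CCAAT in 6 and 2, TATAAA in 0 and 1 and the YY1 site in 0 and 1. Over all members of higher and lower mean the median number of CpG was 15 and 19, against 22 in genes above the threshold. Among those with an unadjusted p under 0.05 it was 10 and 21. These are counts of letters in a window, 5 motifs were searched on both strands, and no difference between shares was tested.

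**Figure D5:**
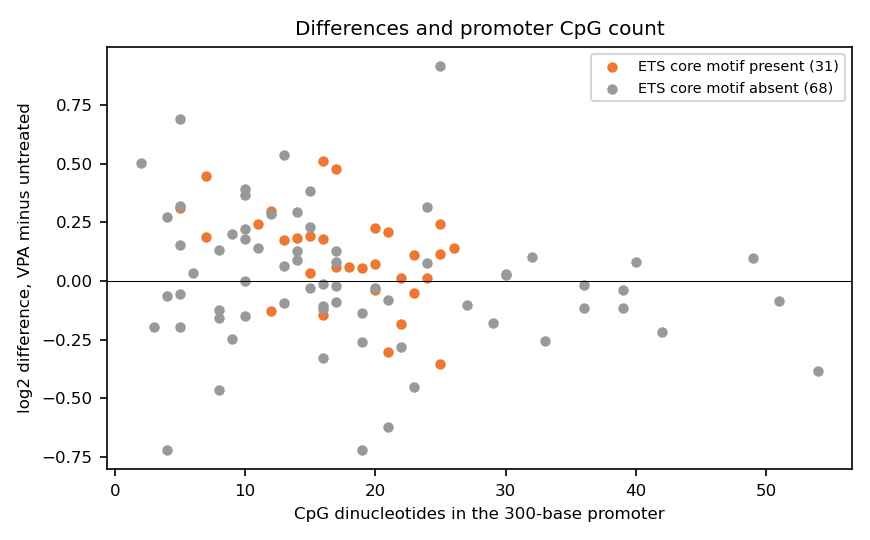
Log2 difference between VPA and untreated cells (vertical axis) against the number of CpG in the 300-base promoter (horizontal axis) for the 99 members with a promoter. Orange points are the 31 promoters with the ETS core, of which 24 lie above 0, and grey points the 68 without it.

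Replicates of 1 group differed by amounts similar to most of the differences between groups. The median gap between the 2 untreated arrays was 0.16 on the log2 scale over the members, and between the 2 VPA arrays 0.13. Untreated replicate 2 was the lower of its pair in 70 members and the higher in 51, and its members lay a median of 0.063 below their mean over the 4 arrays. The same median was −0.057 over all genes above the threshold. The widest pair was that of Zfp654, at 7.70 and 6.90 in untreated and 7.38 and 7.68 in VPA cells. Its difference of 0.23 ± 0.29 (SE) turned to −0.17 without untreated replicate 2. Zfp979 lay at 7.79 and 7.14 against 7.25 and 7.58, and Zfp512 at 6.03 and 5.43 against 5.56 and 5.84, so that in both the untreated arrays enclosed the VPA arrays.

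Probe sets of 1 gene did not always give the same value. Of the members, 8 had more than 1 probe set with a single symbol. Zfp141 differed by 0.18 on both of its probe sets and Zfp640 by 0.043, 0.22 and 0.19. Zfp407 differed by 0.18 ± 0.17 (SE) on its brighter and by −0.23 ± 0.14 on its other probe set, and Zfp706 was likewise opposite in sign. Zfp825 differed by 0.18 ± 0.11 on its brighter probe set and by 0.73 ± 0.20 on its other one, which lay at 5.91 and 5.39 in untreated and 6.45 and 6.32 in VPA cells. Zfp395 differed by 0.19 ± 0.12 and by 0.53 ± 0.14 on a dimmer probe set. A further 9 members are also named on probe sets shared with relatives (Zfp111, Zfp600, Zfp640, Zfp646, Zfp821, Zfp971, Zfp979, Zfp980 and Zfp991), with Zfp640 in both groups, and how far their own probe sets read relatives was not tested. Of these, Zfp980 lay at 9.33 and 9.09 in untreated and 8.94 and 9.08 in VPA cells, and differed by −0.20 ± 0.13.

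The threshold itself cut through a continuum. The members just inside it were Zfp446, at 4.91 and 5.10 in untreated and 4.83 and 4.98 in VPA cells, and Zfp444 and Zfp940, whose untreated means were 5.01 and 5.02. Just outside were Zfp882, Zfp326 and Zfp982, at 4.98, 4.96 and 4.95 in untreated and 5.20, 5.42 and 4.99 in VPA cells. The 150 numbered Zfp genes below the threshold had a median untreated mean of 3.81. Of these, 13 were higher (8.67%) and 1 lower (0.667%) at an unadjusted p under 0.05. Of all 11748 represented genes below the threshold 3.02% were higher and 2.18% lower. With the threshold set on the VPA arrays 130 genes passed, with 16 higher and 8 lower, and a median difference of 0.074. That threshold takes in 9 genes only through their VPA mean and drops 2 members whose VPA mean was under 5. It therefore moves the count of higher genes and the median upward by itself, and these values are descriptions only.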

How the data were processed

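Total RNA was measured on 4 one-colour arrays. The deposited values are log2 signals, 1 per probe set. The submitters' processing notes name RMA, which includes quantile normalization across arrays, and version 1.1 of Affymetrix Expression Console. The arrays normalized together are not given in the sources used here. Gene names came from the platform annotation: 21789 probe sets had 1 symbol, 1621 several and 12146 none, and 122 of 123 members matched RefSeq's GRCm38.p6 table.

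Treatment was the only term in lmFit and eBayes of limma 3.58.1 (R 4.3.3), fitted over all 35556 probe sets, two-sided, with Benjamini-Hochberg adjustment and 2 residual degrees of freedom. Errors are the fit's SE. With 2 arrays a group, exact permutation reaches no p under 0.33. The script was tested on simulated data. The number of arrays limits the precision.

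Members and lists were chosen with earlier results of these data known. Named are the 12 members of smallest p per direction, the 6 of highest signal, the 3 nearest the threshold on each side, the 3 of widest replicate pair, all members of the role lists and listed cofactors and markers. Protein sequences were not analysed here. The alternatives were other scaling, filtering, moderation, thresholds and probe set choice, a replicate block and leaving out each array. Whether arrays sharing a replicate number were paired is not given in the labels.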

Additional observations from a re-analysis of the deposited data

How the results depend on the processing

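No member was called at an adjusted p of 0.05 in the main fit or under any of the 14 alternatives, and the smallest adjusted p of a member was 0.321 with the dimmer probe sets left out. The counts that follow have no shares over all genes beside them. After a second quantile normalization 8 members were higher at an unadjusted p under 0.05 and the median difference was −0.018. With the VPA arrays setting the threshold, which by itself favours genes of higher signal with VPA, the median was 0.074. With an untreated mean of 6 or more 3 members were higher, and 1 was at least 1.5-fold higher without overlap. With no threshold these counts were 26 and 8. With the replicate number as a replicate block 5 members were lower and 9 higher. The labels do not say whether same-numbered arrays were paired. Their deviations from the group means correlated at −0.097 over probe sets, and 1 such value from 2 arrays a group cannot settle it. Leaving out each array gave 5 to 15 members of higher and 4 to 7 of lower signal, 2 to 5 at least 1.5-fold higher and 2 to 4 lower, and medians from 0.012 to 0.088. Without untreated replicate 1 and 2 and VPA replicate 1 and 2 in turn, 10, 6, 5 and 7 of the 13 higher members and 5, 4, 5 and 4 of the 8 lower ones kept that p. Of 63 named members, the 20 with an unadjusted p under 0.05 kept their sign in every alternative fit. Their groups did not overlap, so leaving out an array could not turn the sign, and this is no measure of robustness. Of the other named members 21 changed sign in at least 1 fit, and the largest main difference among them was 0.23. The cause of these shifts was not tested.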

Other observations

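Probe sets shared by several genes lie outside the counts above. There were 38 that name a numbered Zfp gene among others, and 30 of them had an untreated mean of 5 or more. Of these 24 had a higher and 6 a lower mean with VPA, and 5 were higher and 0 lower at an unadjusted p under 0.05 in limma, against 10% and 3.47% of genes above the threshold. Of these 5, 4 are not separate observations of single genes. These 4 each name 14 to 18 genes and differed by 0.40 to 0.41, and 2 of those held identical values on every array. No gene is named from them, since their probes cannot tell the relatives apart.

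Zfp genes whose number is followed by a letter were also left out. Of 24 such genes 11 passed the threshold, 5 of higher and 6 of lower mean. Zfp280c lay at 5.36 and 5.12 in untreated and 5.78 and 5.78 in VPA cells, a difference of 0.54 ± 0.13 (SE), and was the only one of the 11 with an unadjusted p under 0.05. Zfp518b lay at 6.74 and 7.14 against 6.62 and 6.33, a difference of −0.47 ± 0.19.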
